A study of Homo sapiens with 6 samples.

Results

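The genes described here encode the actin cytoskeleton and its transcription factor SRF, and they were taken from the RNA-seq table of NCI-H1299 cells by a fixed list of gene symbols. The list has 38 members, out of 26025 genes in the table, and all 38 were found. NCI-H1299 is an established line of human lung cancer of the non-small cell type. The Ctrl group has 3 libraries of cells that received vehicle, and the NE group has 3 libraries of cells given 10 µM norepinephrine (NE), the transmitter of sympathetic nerves that the study links to chronic stress. Cells of both groups were first starved for 8 to 12 h in DMEM. Treatment then lasted 48 h in RPMI-1640 with 2% fetal bovine serum. The Ctrl cells therefore also went through the starvation, the change of medium and the low serum. The sample records call the vehicle DMSO in one place and PBS in another. The records name no genetic change in either group, and nothing in the records says that the 3 libraries of a group came from separate cultures, so the p-values measure only the spread between these libraries, which may be technical. Ctrl replicate 3 stood apart from the other Ctrl libraries, with 7305 genes without a read against 4829 and 4833, and over all genes the differences between NE and Ctrl followed the GC content of the gene. Counts over the whole list are therefore given with all libraries, without Ctrl replicate 3, and with the GC trend removed from each library.

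Actin monomers assemble into filaments, and the filaments are bundled by alpha-actinins, stabilised by tropomyosins, pulled by non-muscle myosin II and anchored to the matrix at focal adhesions. Free monomers bind the coactivators MRTF-A and MRTF-B and keep them in the cytoplasm. When monomers are used up by assembly, the coactivators enter the nucleus and act with SRF, which binds a DNA element named the CArG box, so that many genes for actin and its partners are transcribed together. Cyclic AMP and protein kinase A, which act downstream of beta-adrenergic receptors for NE, are known to restrain filament assembly in many cells.

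The promoters are shown first because the CArG box is the feature that the list's name refers to. Promoter windows from RefSeq on GRCh38.p14, from 250 bases before to 50 bases after an annotated start site, were available for 34 members, which have 72 windows, and were not used for ACTB, TAGLN, MYL9 and ARPC1B. A CArG box (the usual consensus, which is its own reverse complement, so that 1 search covers both strands) lay in 10 of the 72 windows, or 13.9%, and in 1.29% of the 35116 windows of all genes. These windows belonged to 8 members, SRF, ACTG1, CNN2, ACTN1, TPM4, FHL2, FHL1 and ACTG2, and a pair of FHL2 windows overlap and share the same box. As the list was drawn up as SRF targets, this share describes the list and was not tested, and a window without the letters says nothing about SRF at that gene. The sequences below run 5′ to 3′ on the strand of the gene, with the CArG box in capitals. The SRF stretch (chr6:43171019-43171268, plus strand) covers the 250 bases before the start site and holds a pair of CArG boxes, at -30 and -10. The ACTG1 stretch (chr17:81512864-81513049, minus strand) has its box at -94 and the CNN2 stretch (chr19:1026358-1026548, plus strand) at -89. Those of ACTN1 (chr14:68977708-68977757, minus strand), TPM4 (chr19:16067345-16067394, plus strand), FHL2 (chr2:105438585-105438634, minus strand) and FHL1 (chrX:136196901-136196950, plus strand) are shown with 20 bases on each side of the box.
SRF: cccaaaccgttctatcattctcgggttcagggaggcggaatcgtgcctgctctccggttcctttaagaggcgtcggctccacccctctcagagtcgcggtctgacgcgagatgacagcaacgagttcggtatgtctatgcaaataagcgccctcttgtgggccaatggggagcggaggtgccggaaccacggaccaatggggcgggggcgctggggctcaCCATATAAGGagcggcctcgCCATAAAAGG
ACTG1: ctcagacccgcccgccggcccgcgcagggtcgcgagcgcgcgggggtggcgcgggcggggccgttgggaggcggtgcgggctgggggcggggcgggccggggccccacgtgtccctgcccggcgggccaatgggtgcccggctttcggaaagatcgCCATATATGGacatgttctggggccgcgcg
CNN2: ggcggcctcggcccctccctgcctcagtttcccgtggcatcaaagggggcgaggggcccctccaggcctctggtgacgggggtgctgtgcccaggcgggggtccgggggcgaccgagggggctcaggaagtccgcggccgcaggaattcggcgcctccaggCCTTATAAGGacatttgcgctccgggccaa
ACTN1: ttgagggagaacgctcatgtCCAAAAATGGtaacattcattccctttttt
TPM4: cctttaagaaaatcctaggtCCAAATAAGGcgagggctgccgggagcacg
FHL2: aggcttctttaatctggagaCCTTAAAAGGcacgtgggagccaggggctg
FHL1: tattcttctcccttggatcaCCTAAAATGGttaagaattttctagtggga
None of these stretches touches an exon of GENCODE v44. The stretches of SRF, CNN2 and FHL2 lie before the annotated gene, and those of ACTG1, ACTN1, TPM4 and FHL1 lie in the gene body, upstream of an internal start site. FHL2 has a further box before another of its start sites, and ACTG2 has a pair, which are not printed. The cAMP response element TGACGTCA, the palindrome bound by CREB, was searched in the same windows, does not overlap the CArG boxes, and occurred in 1 member window, that of MYL6 (chr12:56158292-56158339, plus strand, capitals), at -47, and in 1.85% of all windows.
MYL6: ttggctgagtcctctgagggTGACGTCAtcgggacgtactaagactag

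Most of the list was lower in NE-treated cells. Of the 36 members with enough reads to test, 24 fell (66.7%), against 25.5% of all 15013 tested genes, with limma on log2(normalized count + 1) and a Benjamini-Hochberg adjusted p under 0.05. In either direction 50.1% of all tested genes were called. Falls of at least 2-fold were called for 12 members (33.3%), against 6.55% of all tested genes, and rises of that size for no member, against 7.47%. Without Ctrl replicate 3, 26 members fell, against 32.6% of all tested genes, and 14 of them by at least 2-fold, against 10.1%. With the GC trend removed 21 fell, against 19.0% of all, and none by 2-fold, against 2.66%. In the fits to all 6 libraries without quantile normalization or a GC correction, no member was called higher with limma, edgeR, DESeq2 or voom, and none had an unadjusted p under 0.05 in that direction with these tools at their main settings, whereas 24.6% of all tested genes were called higher with limma. With the GC trend removed 1 member, TAGLN, was called higher, and with quantile normalization 1, CNN3. At an unadjusted p under 0.05, 1 member was higher with limma without its mean-variance trend, 1 without Ctrl replicate 1 and 2 with quantile normalization. The median log2 difference between NE and Ctrl was -0.57 over the 36 members and 0.01 over all tested genes, and 33 members were below 0. In bulk RNA, fewer cells that express a gene and less RNA of that gene per cell cannot be told apart. The 2 members that were not tested, ACTG2 and CNN1, are smooth muscle genes and had between 0 and 2.09 normalized counts in each library. A normalized count is a gene's read count divided by 1 size factor per library, and the added 1 in log2(normalized count + 1) pulls the difference of a low gene towards 0.

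**Figure D1:**
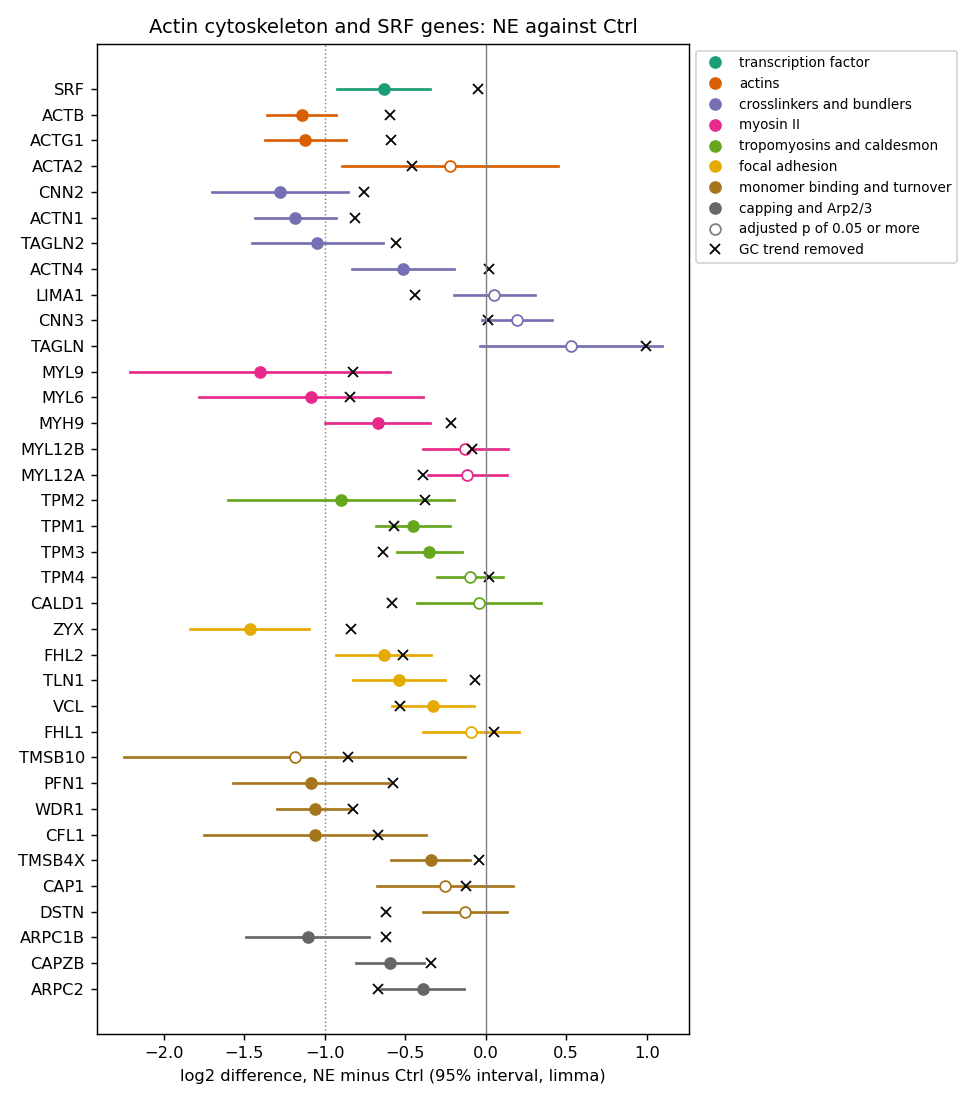
Log2 difference between NE and Ctrl for the 36 tested members, grouped by role, with 95% intervals from limma over 3 libraries per group (filled points, adjusted p under 0.05; open points, 0.05 or more), and the same difference after the trend with GC content was removed from each library (crosses). The 24 filled points lie left of 0, from ZYX at -1.47 to VCL at -0.32, and 3 members, TAGLN, CNN3 and LIMA1, lie right of 0 as open points.

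SRF itself, on chromosome 6 from 43171269 to 43181506 of hg38, was lower with NE. Its normalized counts were 2721, 2549.9 and 2038 in Ctrl replicates 1, 2 and 3 and 1608, 1627 and 1452 in the NE replicates, so that every NE library lay below every Ctrl library. The mean went from 2436 ± 355 (SD, n = 3) to 1562 ± 96 (SD, n = 3), 64.5% of the Ctrl level on the log2 scale (log2 difference -0.63, standard error 0.128, limma adjusted p = 0.0033). The gene is rich in GC, and after the GC trend was removed its log2 difference was -0.0478 with an adjusted p of 0.71 from limma, so the call did not remain.

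The cytoplasmic actins fell together, by more than 2-fold before the GC correction. ACTB, which codes for beta-actin and lies on chromosome 7 from 5526409 to 5563902, had 121161, 120157 and 126427 normalized counts in Ctrl and 54024, 55401 and 57196 in NE libraries. It fell to 45.3% of the Ctrl level (log2 difference -1.14, standard error 0.0953, limma adjusted p = 7.37e-05), and the 6 libraries formed a high and a low group with a wide gap. ACTG1, which codes for gamma-actin and lies on chromosome 17 from 81509413 to 81523847, had 127367, 129707 and 152246 normalized counts in Ctrl and 65756, 62616 and 59551 in NE libraries. Its NE libraries again lay below all Ctrl libraries (log2 difference -1.12, standard error 0.111, limma adjusted p = 0.00014). With the GC trend removed, the log2 differences were -0.60 for ACTB and -0.59 for ACTG1 (limma adjusted p = 0.0109 and 0.0265). With a replicate block as well, ACTG1 was not called (limma adjusted p = 0.0634). Per length of the canonical transcript, these were the most abundant members, ACTG1 at 3953 ± 477 FPKM (SD, n = 3) in Ctrl and 1991 ± 16 in NE, and ACTB at 3758 ± 176 and 1874 ± 132. The coding sequences of ACTB and ACTG1 are similar, and how reads that match both were counted is not given in the sources used here. Pseudogene rows of ACTB and ACTG1 held 0.0211% and 0.0131% as many counts as the genes. ACTA2, smooth muscle alpha-actin, was low, with 62.8, 67.4 and 34.3 normalized counts in Ctrl and 46.4, 44.6 and 43.9 in NE libraries, the groups overlapped, and no difference was called (limma adjusted p = 0.554).

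Among the crosslinkers and bundlers, 4 of 7 tested members fell, against 25.5% of all tested genes, and 3 were not called. Counts by class, here and below, are from limma on all 6 libraries. The calls that changed with the GC trend removed are given further on. CNN2 codes for calponin 2, an actin-binding protein of non-muscle cells. It had 6832, 6751 and 4023 normalized counts in Ctrl and 2312, 2437 and 2305 in NE libraries, and fell to 41.2% (log2 difference -1.28, standard error 0.188, limma adjusted p = 0.000711). ACTN1, a non-muscle alpha-actinin that crosslinks stress fibres, had 16198, 16059.8 and 13644 in Ctrl and 7363, 6679.9 and 6161 in NE (log2 difference -1.18, standard error 0.112, limma adjusted p = 0.000114). TAGLN2, transgelin 2, had 10604, 10705 and 6856 in Ctrl and 3799, 4829 and 4827 in NE (log2 difference -1.05, standard error 0.18, limma adjusted p = 0.00152). For all of these genes the groups did not overlap, and Ctrl replicate 3 was the lowest Ctrl library. ACTN4, the other non-muscle alpha-actinin, fell less, from 61115 ± 10084 to 42482 ± 3859.8 normalized counts (SD, n = 3; log2 difference -0.51, limma adjusted p = 0.0134), and its difference was 0.022 once the GC trend was removed. Leaving out Ctrl replicate 1 or 2 or NE replicate 2 or 3 ended its call.

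The 3 members with a log2 difference above 0 also belong to this class. TAGLN, transgelin, a marker of smooth muscle and of stress-fibre-rich cells, had 62.8, 55 and 39.2 normalized counts in Ctrl and 64.2, 86.2 and 74.9 in NE libraries. All NE libraries were above all Ctrl libraries, but the difference of 0.53 on the log2 scale did not pass (limma adjusted p = 0.107). With the GC trend removed the difference was 0.996 and passed (limma adjusted p = 0.00731), which made TAGLN the 1 member called higher in that fit. CNN3, calponin 3, had 2373, 2429.7 and 2200.0 in Ctrl and 2595, 2789 and 2621 in NE, again without overlap (log2 difference 0.19, limma adjusted p = 0.122). LIMA1, which codes for the filament-stabilising protein EPLIN, had 1330.0, 1238 and 1173 and 1420.0, 1256 and 1209.8, with overlap (log2 difference 0.05, limma adjusted p = 0.711), and its sign turned once the GC trend was removed (-0.44).

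Of the 5 myosin II members, 3 fell, against 25.5% of all tested genes. MYL9, the regulatory light chain typical of smooth muscle and contractile cells, had 1024, 969.6 and 381 normalized counts in Ctrl and 208, 272 and 361 in NE libraries (log2 difference -1.40, standard error 0.357, limma adjusted p = 0.00994). MYL6, the essential light chain, had 9810.3, 9768 and 4488 in Ctrl and 2511, 4322 and 4139 in NE (log2 difference -1.09, standard error 0.309, limma adjusted p = 0.0164). In both genes Ctrl replicate 3 sat just above the highest NE library. Without that library the differences were -1.86 and -1.46. Without NE replicate 1 neither gene was called, and MYL6 was not called without Ctrl replicate 2. MYH9, the non-muscle myosin heavy chain IIA, went from 24076 ± 4062 to 15028 ± 1649 (SD, n = 3; log2 difference -0.67, limma adjusted p = 0.00431). MYL12A and MYL12B, the nearly identical regulatory light chains of non-muscle myosin, were not called, with log2 differences of -0.11 and -0.13.

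Tropomyosins wrap along filaments and set which proteins can bind them. TPM1 went from 5264 ± 334 to 3849 ± 277 normalized counts (SD, n = 3; log2 difference -0.45, limma adjusted p = 0.00536), and TPM3 from 12490.3 ± 446 to 9788 ± 310.1 (log2 difference -0.35, limma adjusted p = 0.00992). The call of TPM3 was lost without Ctrl replicate 2. TPM2 had 3274, 3090.2 and 1251 in Ctrl and 1179, 1261 and 1312 in NE libraries, so Ctrl replicate 3 fell inside the NE range (log2 difference -0.90, limma adjusted p = 0.0371). Without that library the difference of TPM2 was -1.35, and leaving out any one of the other 5 libraries ended the call. TPM4 and CALD1, caldesmon, an actin and tropomyosin binding protein, were not called, at -0.10 and -0.04.

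At focal adhesions, 4 of 5 members fell, against 25.5% of all tested genes. ZYX, zyxin, a LIM protein that marks tensed adhesions and stress fibres, had the largest difference of the members with limma on all 6 libraries. MYL9 was ahead of it with edgeR and DESeq2, MYL9 and TMSB10 without Ctrl replicate 3, and TMSB10 and MYL6 with the GC trend removed. The normalized counts of ZYX were 8048, 7852 and 5179 in Ctrl and 2386, 2613 and 2485 in NE libraries. It fell to 36.2% of the Ctrl level (log2 difference -1.47, standard error 0.163, limma adjusted p = 0.000219). TLN1, talin 1, which links integrins to actin, and VCL, vinculin, which binds talin, showed smaller falls of 0.54 and 0.32 on the log2 scale. For VCL the limma adjusted p was 0.0383, and leaving out Ctrl replicate 1 or 2 or NE replicate 2 or 3 ended the call. FHL2, a LIM-only SRF partner and target, went from 2155 ± 354 to 1378 ± 83.2 (SD, n = 3; log2 difference -0.63, limma adjusted p = 0.0036), while its relative FHL1 was not called (-0.09).

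Of 7 genes for proteins that bind monomers or turn filaments over, 4 fell, against 25.5% of all tested genes. PFN1, profilin 1, which feeds monomers to growing ends, had 11878, 11906 and 6659 normalized counts in Ctrl and 3967, 4841 and 5113 in NE libraries (log2 difference -1.09, standard error 0.215, limma adjusted p = 0.00297). CFL1, cofilin 1, which severs filaments, had 13738, 13962 and 5848 in Ctrl and 3991, 5318 and 5845 in NE (log2 difference -1.06, standard error 0.306, limma adjusted p = 0.0175), so that Ctrl replicate 3 and NE replicate 3 were all but equal, and leaving out Ctrl replicate 1 or 2 or NE replicate 1 ended the call. WDR1, the cofilin cofactor AIP1, had 15106, 15034 and 16167 in Ctrl and 8264, 7235 and 6764 in NE (log2 difference -1.06, standard error 0.105, limma adjusted p = 0.000135), with a clear gap between the groups. TMSB4X, thymosin beta 4, fell by 0.34 on the log2 scale, but pseudogene rows held 23.6% as many counts as the gene, its value is uncertain, and the call was lost without Ctrl replicate 1 or 2 or NE replicate 1 or 2. CAP1, a cyclase-associated protein that recycles monomers, and DSTN, destrin, a relative of cofilin whose pseudogene rows held 4.95% as many counts as the gene, were not called (-0.25 and -0.13).

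TMSB10, thymosin beta 10, another monomer-binding peptide, was the member with the most uneven Ctrl group. Its normalized counts were 30206, 30334 and 7695 in Ctrl and 6038, 9523 and 10424 in NE libraries. Ctrl replicate 3 lay within the NE range, -1.98 on the log2 scale against the mean of Ctrl replicates 1 and 2. With all libraries the log2 difference of -1.19 did not pass with limma (adjusted p = 0.0609), whereas edgeR (-1.40, adjusted p = 0.0237) and DESeq2 (-1.39, adjusted p = 0.0487) called it lower. Without Ctrl replicate 3 it was -1.84 and passed (limma adjusted p = 1.29e-06).

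All 3 members of the capping and Arp2/3 class fell, against 25.5% of all tested genes. ARPC1B, a subunit of the Arp2/3 complex that branches filaments, had 245, 242 and 225 normalized counts in Ctrl and 101, 98.8 and 132 in NE libraries (log2 difference -1.11, standard error 0.17, limma adjusted p = 0.000875). CAPZB, the beta subunit of the protein that caps filament ends, went from 5093 ± 69.9 to 3373 ± 204 (SD, n = 3; log2 difference -0.60, limma adjusted p = 0.00097). ARPC2, another Arp2/3 subunit, showed the smallest difference of the class (-0.39, limma adjusted p = 0.0183), and it passed in 1 of 6 fits with a library removed, that without Ctrl replicate 3.

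**Figure D2:**
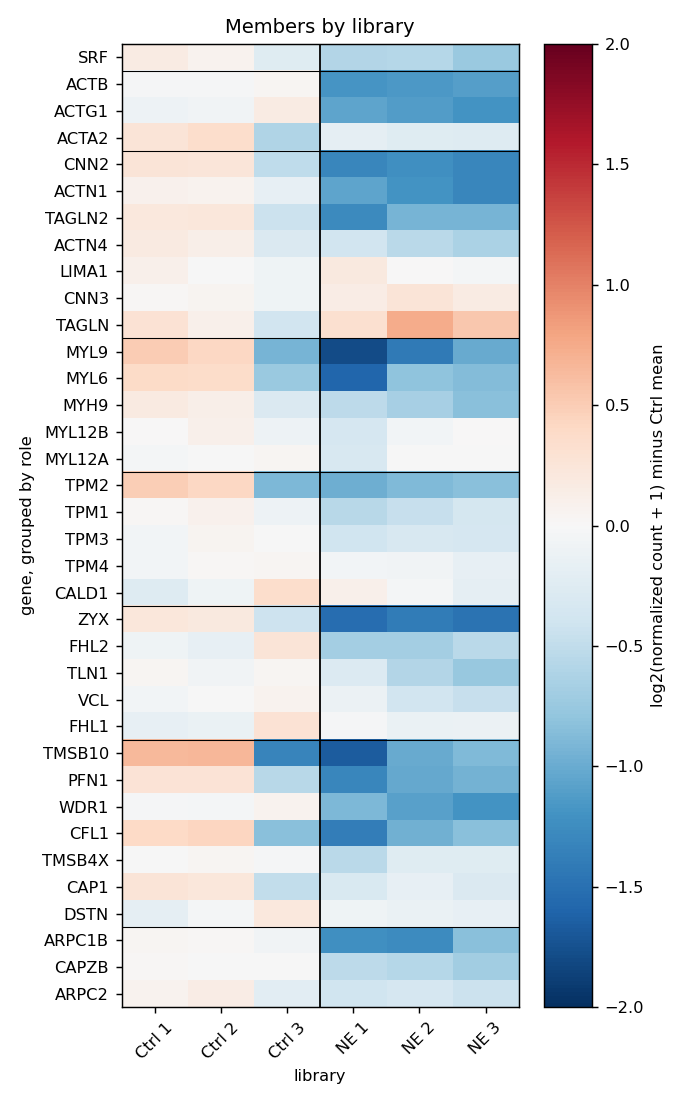
Each of the 36 tested members (rows, grouped by role) in each of the 6 libraries (columns), as log2(normalized count + 1) minus the mean of the 3 Ctrl libraries, from blue (lower) to red (higher). Blue fills the NE columns for most rows, and Ctrl replicate 3 is also blue for TMSB10, MYL9, MYL6, TPM2 and CFL1.

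The Ctrl libraries were not alike. Over the members, the median absolute difference between Ctrl replicates 1 and 2 was 0.0512 on the log2 scale, and that between Ctrl replicate 3 and their mean was 0.347, against 0.114 and 0.347 over all tested genes. Ctrl replicate 3 was below both other Ctrl libraries for 23 of the 36 members and above both for 11, and it was lower by at least 1 on the log2 scale for 5, TMSB10, MYL9, TPM2, CFL1 and MYL6. The NE libraries had 3954 to 4416 genes without a read, and all libraries had depths of 16852751 to 17979206 reads on genes. With Ctrl replicate 3 left out, the 26 lower members included all 24 members called with 6 libraries, and no member was higher (31.8% of all), also at an unadjusted p under 0.05 with limma. NE libraries lay below all Ctrl libraries for 23 members (28.9% of all tested genes) and above for 2, TAGLN and CNN3 (29.7% of all).

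GC content moved with these differences. The merged exons of the members had a median GC content of 52.4%, from 40.6% to 63.5%, against 47.5% over all tested genes. Across the 36 members, the log2 difference between NE and Ctrl was more negative at higher GC content (Pearson r = -0.68, Spearman's coefficient = -0.71), and across 12581 tested protein-coding genes Spearman's coefficient was -0.69. The deviation of Ctrl replicate 3 from the other Ctrl libraries had a Spearman coefficient of -0.42 with GC content over the members and -0.58 over the protein-coding genes. These are descriptions across genes of the same 6 libraries, and genes are not independent replicates. Once a smooth GC trend was removed from each library, 21 members were lower (19.0% of all tested genes) and 1, TAGLN, was higher (13.0% of all). The median over the members was -0.54 in that fit, against -0.04 over all genes. No member reached a 2-fold fall there with limma, also at an unadjusted p under 0.05, where 2.66% of all tested genes did. Of the 24 members called lower in the first fit 17 were called in both, and SRF, ACTN4, MYH9, TPM2, TLN1, CFL1 and TMSB4X were not. The GC-poor members MYL12A, LIMA1, CALD1 and DSTN were called lower only after the trend was removed. ACTB, ACTN1, TAGLN2, CNN2, ZYX, PFN1, ARPC1B, WDR1 and FHL2 were called lower in each of the 23 alternative fits.

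**Figure D3:**
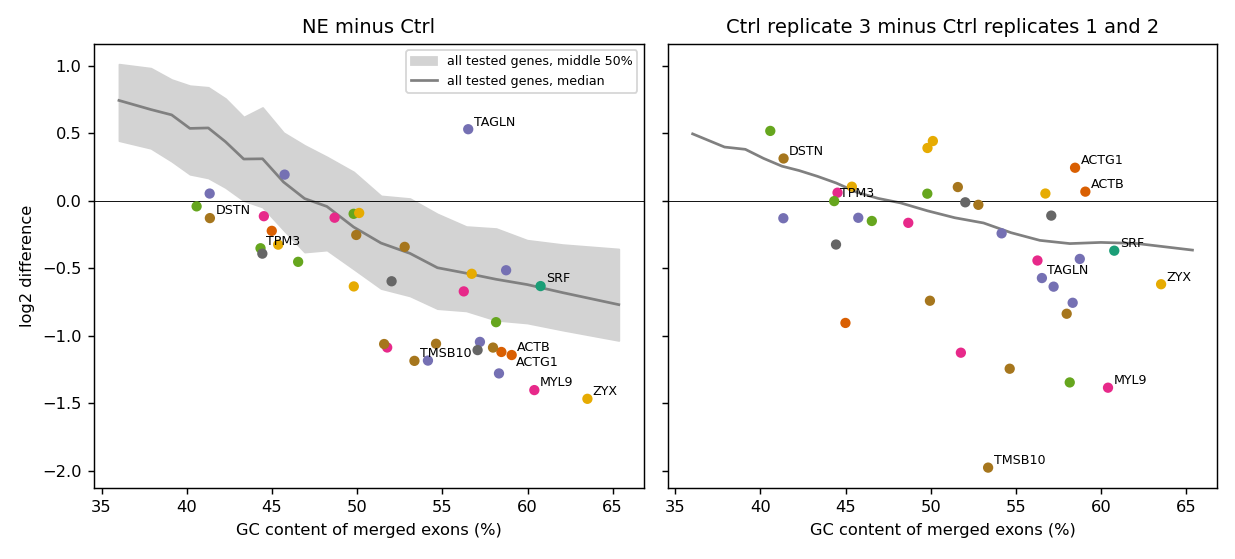
GC content of each gene's merged exons (%) against the log2 difference between NE and Ctrl (left) and between Ctrl replicate 3 and the mean of Ctrl replicates 1 and 2 (right), for the 36 tested members (points, coloured by role as in the plot of log2 differences) and for all tested genes in bins of GC content (line, median, and on the left also the middle 50% as a grey band). The median of all genes declines from left to right in both panels, and ZYX, MYL9, ACTB and ACTG1 lie below the band at their GC content while TAGLN lies above it.

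As a share of all reads on genes, the 38 members took 3.15%, 3.14% and 2.97% in the Ctrl libraries and 1.82%, 1.90% and 1.92% in the NE libraries. The mean share went from 3.09% ± 0.102 to 1.88% ± 0.0554 (SD, n = 3), with an exact two-sided permutation p of 0.1, the smallest that 3 against 3 libraries allow. ACTB and ACTG1 made up 1.44% ± 0.123 of reads in Ctrl and 0.722% ± 0.0213 in NE libraries (exact permutation p = 0.1). The other 36 members took 1.78%, 1.77% and 1.39% in Ctrl and 1.12%, 1.18% and 1.18% in NE libraries.

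**Figure D4:**
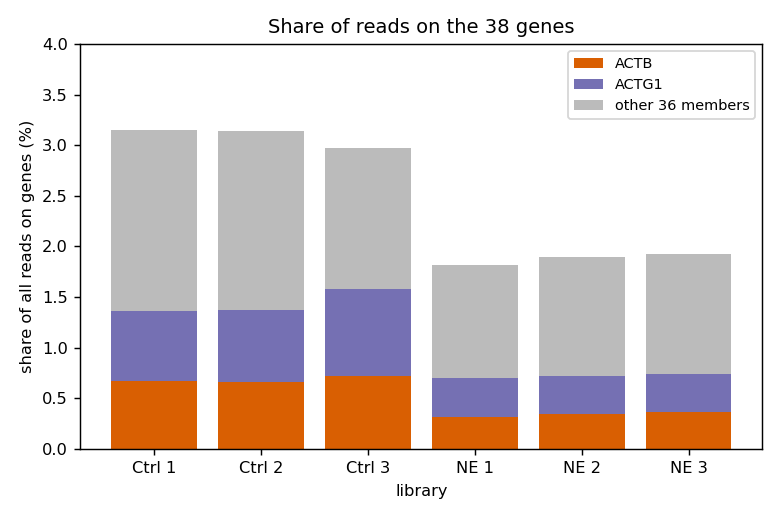
Share of all reads on genes (%) taken by ACTB, ACTG1 and the other 36 members in each library. The bars reach 2.97% to 3.15% in Ctrl and 1.82% to 1.92% in NE libraries, and no NE bar reaches the lowest Ctrl bar.

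For 5 of 10 pairs of related members the ratio of one to the other lay apart in the groups. No pair could pass the threshold, since the smallest possible exact permutation p was 0.1. Among all tested genes taken singly, NE libraries lay below all Ctrl libraries for 28.9% and above them for 29.7%. No such share was computed for ratios of genes. The ratio of 2 members within a library does not depend on the scaling between libraries, and the pairs were compared by exact two-sided permutation tests, with p-values adjusted over the 10 pairs. The log2 ratio of TAGLN to TAGLN2 was -7.38, -7.58 and -7.41 in Ctrl and -5.86, -5.79 and -5.99 in NE libraries. That of CNN3 to CNN2 was -1.53, -1.47 and -0.87 in Ctrl and 0.17, 0.19 and 0.18 in NE. The ratio of ACTN1 to ACTN4 was -2.08, -2.03 and -1.86 in Ctrl and -2.66, -2.65 and -2.66 in NE. In these pairs the groups did not overlap, with mean differences of 1.57, 1.47 and -0.67. The groups were also apart for FHL1 to FHL2 (0.54) and TPM4 to TPM3 (0.25). Each of these 5 pairs had an exact permutation p of 0.1, the smallest possible here, and an adjusted p of 0.2. ACTB to ACTG1 had overlapping groups and a mean difference of -0.02 (exact permutation p = 0.8), which is within the SD of 0.104 between Ctrl libraries. The groups also overlapped for MYL9 to MYL6, MYL12A to MYL12B, TPM1 to TPM2 and TMSB10 to TMSB4X. A ratio still carries the GC trend where the GC content of its members differs. With that trend removed, the log2 differences between NE and Ctrl were 0.0143 for CNN3 and -0.75 for CNN2. They were 0.996 for TAGLN and -0.55 for TAGLN2, and -0.81 for ACTN1 and 0.022 for ACTN4.

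**Figure D5:**
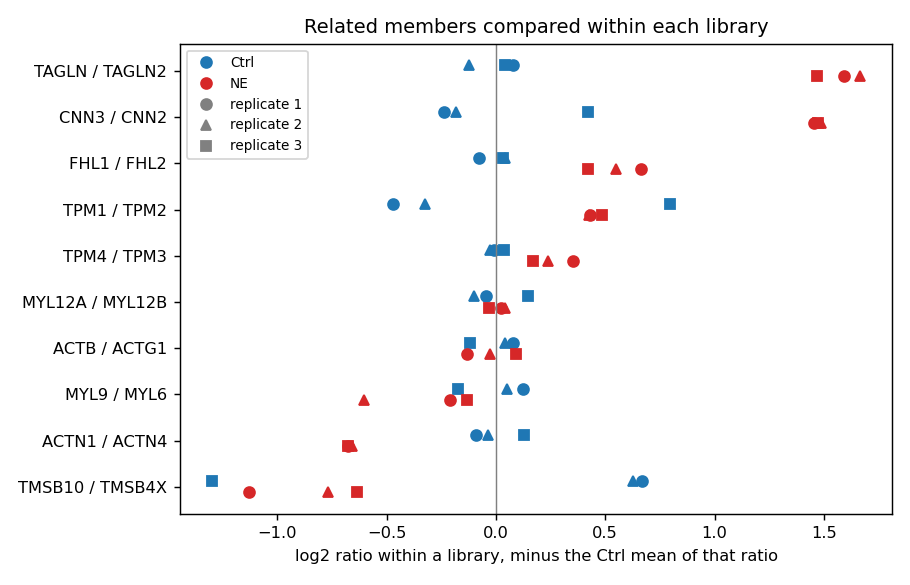
Log2 ratio of 2 related members within each library, minus the Ctrl mean of that ratio, for 10 pairs (Ctrl, blue; NE, red; 1 marker shape per replicate number). Red and blue markers are apart for TAGLN to TAGLN2, CNN3 to CNN2, FHL1 to FHL2, TPM4 to TPM3 and ACTN1 to ACTN4, and mixed for ACTB to ACTG1.

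The members with a CArG box in a promoter window were compared with those without one as a description. Of 7 tested members with a box, 5 fell, with log2 differences from -1.28 to -0.09 and a median of -0.63. Of 25 tested members with a window and no box, 16 fell, from -1.47 to 0.19 with a median of -0.45. Both counts are from limma on all 6 libraries, where 25.5% of all tested genes fell. With the GC trend removed SRF, which has a box, was no longer called (limma adjusted p = 0.71). The members shown above include SRF, ACTG1, CNN2, ACTN1 and FHL2, which fell, and TPM4 and FHL1, which were not called. MYL6, the member with the cAMP response element, fell.

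The genes of the SRF coactivators changed in opposite directions, MRTFA by -0.60 and MRTFB by 0.70 on the log2 scale (limma adjusted p = 0.00691 and 0.00828), and the differences were -0.15 and 0.26 after the GC correction. Those 2 genes were picked for description after their values were seen.

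Of 14 other known MRTF and SRF targets that were tested, 8 fell and 3 rose, against 25.5% and 24.6% of all tested genes, with a median log2 difference of -0.45. With the GC trend removed 9 fell and 2 rose, against 19.0% and 13.0% of all, and without Ctrl replicate 3, 8 fell and 4 rose, against 32.6% and 31.8%. ANKRD1, a muscle ankyrin repeat protein and a target of mechanical signals, had 104, 114 and 90.2 normalized counts in Ctrl and 18.8, 24.2 and 41.1 in NE libraries (log2 difference -1.90, limma adjusted p = 0.0011). TGFB1I1, the focal adhesion protein Hic-5, fell by 1.49 and PDLIM7, a PDZ and LIM protein of stress fibres, by 1.47 on the log2 scale. Among 6 tested immediate-early targets of SRF with ternary complex factors, 2 rose and 2 fell, against 24.6% and 25.5% of all tested genes, with a median log2 difference of 0.19. Without Ctrl replicate 3 the counts were again 2 and 2, against 31.8% and 32.6%. With the GC trend removed 4 rose and 1 fell, against 13.0% and 19.0% of all. IER2 fell by 1.37 and JUNB by 0.87, and FOS rose from 66.8 ± 13.1 to 151 ± 30.9 normalized counts (SD, n = 3; log2 difference 1.16, limma adjusted p = 0.00259). With the GC trend removed the log2 differences were -0.77 for IER2, -0.23 for JUNB and 1.50 for FOS.

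Of 21 tested genes for other actin machinery, 6 fell and 2 rose, with a median log2 difference of -0.04, and the share that fell was close to the 25.5% of all tested genes (24.6% rose). Once the GC trend was removed 11 fell (19.0% of all) and none rose at an adjusted p under 0.05 with limma, with 1 higher at an unadjusted p. Without Ctrl replicate 3, 9 fell and 8 rose, against 32.6% and 31.8% of all. The largest changes were falls in PXN, paxillin, an adhesion scaffold (-1.70), VASP, which promotes filament growth (-1.499), and ARPC4, an Arp2/3 subunit (-1.21), with limma adjusted p of 2.02e-05, 0.00145 and 0.00033.

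ACTB is also a common reference transcript in quantitative PCR, and it was the reference in the study's own assays. Of 16 genes often used for that purpose, 8 fell and 2 rose, against 25.5% and 24.6% of all tested genes, with a median log2 difference of -0.29, and all 16 had a log2 difference less negative than that of ACTB. RPLP0, a ribosomal protein gene, fell by 0.90 and SDHA, a subunit of succinate dehydrogenase, by 0.81 on the log2 scale. Relative to ACTB within the same library, their level in NE over Ctrl was 1.18-fold for RPLP0, the lowest value, 1.66-fold for GAPDH and 3.12-fold for IPO8, the highest. GAPDH and IPO8 were chosen after their values were seen. The exact permutation p was 0.1 for 15 of these ratios and 0.2 for SDHA. After the GC trend was removed 11 of the 16 were less negative than ACTB, and B2M, PGK1, PPIA, RPLP0 and SDHA were more negative.

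Markers of other cell types ranged from near 0 to well expressed. The leukocyte marker CD68 had between 0 and 2.09 normalized counts per library, and the smooth muscle markers DES and LMOD1 had means of 2.42 and 2.98 in Ctrl and 1.29 and 0.609 in NE. The summed level of the smooth muscle markers was 948 to 1301 in Ctrl and 364 to 458 in NE libraries, nearly all from SMTN, smoothelin, which is also expressed outside muscle. Among the markers listed for an epithelial carcinoma line, the keratins KRT8 and KRT18 were high and fell. VIM, vimentin, a mesenchymal marker on the same list, was also high and fell (limma adjusted p = 0.0462). Of these 3 genes, 2 were called without Ctrl replicate 3 and 2 with the GC trend removed. EPCAM and CDH1 had means between 0.305 and 2.55. The summed level of the list, most of it from VIM, was 99416 to 105904 in Ctrl and 57214 to 72368 in NE libraries. The part of SMTN, KRT8 and KRT18 in the lower members was not tested. TTN, titin, the 1 tested marker of striated muscle, rose, and COL1A1, the 1 tested fibroblast marker, fell, with means of 62 and 176 and of 23.5 and 9.2 normalized counts in Ctrl and NE. The summed levels were 59.8 to 74.4 and 160 to 191 for striated muscle markers, and 23.5 to 42.9 and 19.2 to 29.6 for fibroblast markers. The part of these genes was not tested either.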

How the data were processed

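RNA-seq libraries were made from total RNA of NCI-H1299 cells, 3 for Ctrl and 3 for NE, and groups and replicate numbers came from the sample records. Per the labels, the authors aligned reads to hg38 with HISAT2 2.0.5 and counted them per gene with featureCounts 1.5.0-p3; the annotation is not given in the sources used here, nor is whether counting used strand. FPKM are named in the methods, whereas the signal that the authors deposited is a gene count over a size factor of its library. After that factor was undone, 100% of values were whole reads within 0.01. The recovered reads on genes were 16852751 to 17979206 per library. Counting error understates the true error, since there were no molecular identifiers.

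The deposited values were fitted in R 4.3.3 with limma 3.58.1 on log2(value + 1) for 15013 genes whose mean was 10 or more, using eBayes with trend and Benjamini-Hochberg adjustment over all of them. Calls needed an adjusted p under 0.05, and 2-fold calls also an absolute log2 difference of 1. On the recovered reads, edgeR 4.0.16 called 3577 genes higher and 3971 lower, and DESeq2 1.42.0 and voom were also run. GC content and length came from merged exons of GENCODE v44 for 25813 genes, and the GC correction fitted a natural spline (5 degrees of freedom) to each library and subtracted it. FPKM values in the report were recomputed from recovered reads with the canonical transcript's length. On simulated data, limma was tested as such, with the GC spline and with a replicate block, as were edgeR, DESeq2 and voom. The other alternative fits were not tested in this way, and the simulated data held no deviating Ctrl library.

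The members and all gene lists were chosen with earlier results of these data known. Named genes were SRF, ACTB, ACTG1, members past adjusted p 0.05 and 2-fold, the 5 largest falls and the rises, and per other list the 3 largest changes past adjusted p 0.05. Promoters were those of RefSeq on GRCh38.p14, and all 72 member windows were identical to hg38. ACTG2 and CNN1 were under the minimum. Protein sequences were not used here, and some of the genes and 1 gene list that this rule covers are not reported here. Alternatives were other pseudocounts, filters, scalings, tests, a replicate block, each library left out, and, added after the data were seen, the GC correction without Ctrl replicate 3.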

Additional observations from a re-analysis of the deposited data

How the results depend on the processing

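The number of members lower with NE was 24, and it was 16 to 26 in every alternative, the lowest with quantile normalization and without Ctrl replicate 2, and 16 to 26 with each library left out. The number lower by at least 2-fold was 12, and it was 5 with quantile normalization, 0 with the GC spline removed, 0 with the GC and length splines removed, 3 without Ctrl replicate 3 and with the GC spline removed, and 7 to 14 with each library left out, the lowest without NE replicate 1. The number higher was 0, and it was 1 with quantile normalization (CNN3), 1 with the GC spline or the GC and length splines removed (TAGLN), and 2 without Ctrl replicate 3 and with the GC spline removed (TAGLN and FHL1). The median over the members was -0.32 with quantile normalization and -0.62 to -0.53 with each library left out. Over all tested genes, 1945 were higher with the GC spline removed and 1817 with both splines removed, against 3693. Median-ratio scaling is the scaling already in the deposited values, so it tests nothing. Using no filter moved the median of all genes by 0.11.

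The deviations of same-numbered Ctrl and NE libraries from their group means had correlations of -0.163, 0.0799 and -0.151 across genes. Ctrl replicate 3 stood apart and enters the Ctrl mean, so these correlations cannot settle whether the numbers pair samples. With the replicate block, 3150 genes were higher and 3358 lower, 23 members were lower and 12 by at least 2-fold. With the block and the GC spline removed, 1414 genes were higher and 2156 lower, 17 members were lower, 1 was higher and 0 lower by at least 2-fold.

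With the GC spline removed, with or without the block, the sign turned for ACTN4 (0.0220), TPM4 (0.0232), LIMA1 (-0.441) and FHL1 (0.0515); with the length spline too, for MYL12B (0.0186), TMSB4X (0.0567), LIMA1 (-0.462) and FHL1 (0.00968). With quantile normalization it turned for MYL12A (0.13), MYL12B (0.19), TPM4 (0.23), VCL (0.0232), FHL1 (0.0933) and DSTN (0.0555). Without Ctrl replicate 3 and with the GC spline removed it turned for ACTN4 (0.00586), CNN3 (-0.0239), TPM4 (0.0935), TLN1 (0.0640), TMSB4X (0.0312), LIMA1 (-0.55) and FHL1 (0.26). With a library left out, LIMA1 ranged from -0.0146 to 0.101, CALD1 from -0.17 to 0.13, FHL1 from -0.17 to 0.0569, the ACTB to ACTG1 ratio difference from -0.0816 to 0.0328 and that of MYL12A to MYL12B from -0.0397 to 0.0856. With the GC spline removed the ratio differences were 0.0166 for MYL9 to MYL6, -0.30 for MYL12A to MYL12B and -0.19 for TPM1 to TPM2. The cause of these turns was not tested. The difference in the share of reads on members kept its sign in all alternatives run. With a library left out the sign could not turn, since no NE share reached the lowest Ctrl share.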
